A study of Mus musculus with 45 samples.

Results

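The interferon response genes are a list of 35 mouse genes whose transcription is raised by interferons, and they were found in the tumour arrays by gene symbol. The value of a gene was its probe set, out of those assigned to that symbol alone, with the highest mean over all 45 arrays. Of the 35 genes, 31 had such a probe set, among 17097 genes measured, and all 31 passed the filter on low signal that kept 11809 genes. Isg15, Bst2, Ifi44 and Tap1 were not analysed here.

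The arrays hold RNA of tumours from a mouse glioblastoma model, labelled as brain of CD-1 nude mice, a strain without a thymus and so with few mature T cells. Per the series description, retroviruses carried the platelet-derived growth factor receptor PDGFRA, unmutated or in 6 mutant forms, into primary mouse astrocytes lacking p53. Every group is labelled p53 null, the comparison group included, so none shows the effect of p53. A tumour-derived form of another receptor, EGFRvIII, which lacks part of its outer domain and signals without ligand, was measured on 8 arrays, and the mutants of PDGFRA, under their label names, on 9 (V544ins), 9 (E10 del.v2), 5 (C450 ins), 5 (D842V), 5 (E10 del) and 3 (E7 del). Unmutated PDGFRA (WT) had a single array (1), so its values stand without any test. The labels give no age, no time and no statement that replicates came from separate animals or cultures, so the p-values cover only the spread among the samples at hand.

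Interferons are secreted proteins that signal to neighbouring cells during infection and in tumours. Type I interferons bind the receptor of Ifnar1 and Ifnar2, whose kinases Jak1 and Tyk2 pass the signal to STAT2, which acts with IRF9 on genes that carry an interferon-stimulated response element near their start. Interferon gamma acts through Ifngr1 and Ifngr2, and in brain both tumour cells and microglia or macrophages can respond.

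The response element is shown for 4 of the members that hold its motif, as a feature outside the measured values. The motif searched was its core, GAAA followed by any 2 bases and GAAA again, on either strand, in the 250 bases before and the 50 after the start of a gene, from RefSeq sequences of build GRCm38.p6. Of the 31 measured members 22 matched a promoter in the RefSeq table, and 9 of these 22 genes (40.9%) held the motif, against 1079 of 27025 genes (3.99%). The 9 were Eif2ak2, Gbp2, Gbp3, Ifih1, Ifit1, Ifit3, Oas1g, Rsad2 and Stat2. In Gbp3 and Oas1g the motif occurred at overlapping positions and was counted once per gene. A match is a description of the letters, not evidence that a factor binds. The 250 bases upstream of the start are printed 5′ to 3′ on the strand of the gene, with motif matches in capitals, for the 4 genes with the motif and the largest spread between arrays. They are Ifit3 (chr19:34583279-34583528, plus strand), Ifit1 (chr19:34640639-34640888, plus strand), Gbp2 (chr3:142620413-142620662, plus strand) and Rsad2 (chr12:26456453-26456702, minus strand).
Ifit3: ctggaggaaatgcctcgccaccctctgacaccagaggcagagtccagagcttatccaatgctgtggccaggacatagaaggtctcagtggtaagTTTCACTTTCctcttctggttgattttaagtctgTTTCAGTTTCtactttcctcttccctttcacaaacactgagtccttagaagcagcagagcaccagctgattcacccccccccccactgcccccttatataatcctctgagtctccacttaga
Ifit1: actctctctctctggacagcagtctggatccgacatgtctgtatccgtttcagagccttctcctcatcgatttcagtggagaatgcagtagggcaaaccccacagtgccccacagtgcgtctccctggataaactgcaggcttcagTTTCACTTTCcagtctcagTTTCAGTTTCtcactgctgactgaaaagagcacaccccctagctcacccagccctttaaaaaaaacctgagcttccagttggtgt
Gbp2: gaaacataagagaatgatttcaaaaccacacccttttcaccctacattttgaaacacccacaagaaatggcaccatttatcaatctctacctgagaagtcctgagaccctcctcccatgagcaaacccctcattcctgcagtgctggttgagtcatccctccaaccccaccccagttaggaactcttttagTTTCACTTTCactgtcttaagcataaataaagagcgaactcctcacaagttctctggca
Rsad2: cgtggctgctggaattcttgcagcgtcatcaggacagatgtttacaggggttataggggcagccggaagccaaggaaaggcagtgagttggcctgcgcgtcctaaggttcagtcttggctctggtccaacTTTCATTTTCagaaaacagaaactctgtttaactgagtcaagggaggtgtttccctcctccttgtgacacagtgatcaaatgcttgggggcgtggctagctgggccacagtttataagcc
The capitals read TTTC, any 2 bases and TTTC because the motif lies on the opposite strand in these 4 genes. Ifit3 held it at 156 and at 122 bases before the start, and Ifit1 at 104 and at 85, each pair with the same letters in the same order. Gbp2 held 1 match at 59 bases and Rsad2 1 match at 120 bases before the start.

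The arrays also differed in genes outside the interferon response. The first principal component (component 1) took up 41% of the variance, and at its low end lay 4 arrays, replicate 2 of E10 del.v2 with replicates 1 to 3 of E10 del. In these 4 arrays the mean of 9 neuron markers was 10.05 to 11.44 on the log2 signal scale, against 4.94 to 10.74 in the other 41. For Actb, the 3' signal exceeded the 5' signal by 0.70 to 1.19 (log2) in them and by 0.43 to 0.87 in the rest, and a larger gap marks more degraded RNA. The same gap for Gapdh did not set the 4 arrays apart. It was 0.08, 0.10 and 0.11 in E10 del replicates 1 to 3 and 0.36 in E10 del.v2 replicate 2. Over all arrays it ran from -0.36 (D842V replicate 2) to 0.41 (WT). The mean of the astrocyte markers lay between 7.23 and 10.26 in the 45 arrays, above the table median of 4.79. That of the T cell markers lay between 3.30 and 4.19 and that of the NK cell markers between 3.10 and 3.97, with 1 of 6 measured markers above the filter in each list (Cd4 and Prf1). The T cell genes Cd3e, Cd3g, Cd3d, Cd8a and Cd8b1 did not pass the filter. Numbers in the sample titles fell into a range of 1 to 30 and a range of 41 to 64, which the labels do not call batches. EGFRvIII, E7 del and WT lay in the upper range, C450 ins, D842V and E10 del in the lower, and V544ins and E10 del.v2 had 3 arrays in the lower and 6 in the upper range.

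Between arrays of one genotype the interferon response genes were among the more variable genes. The residual SD, the spread within genotypes, had a median of 1.10 over the 31 members and 0.44 over all 11809 genes. All 31 members lay above the median of all genes, and 20 lay above the 90th percentile of 1.04. Xaf1, a gene that promotes cell death and is induced by interferon, had the largest residual SD at 1.57, with arrays from 4.39 to 12.12. Usp18, whose protein removes ISG15 from its targets and dampens the type I receptor, followed at 1.46, with arrays from 4.79 to 10.72. Cmpk2, a mitochondrial nucleotide kinase, had the smallest at 0.73, with arrays from 6.10 to 10.10. Xaf1 had a second probe set, with a mean of 7.59 and above the table median in all 45 arrays. Its SD over the 45 arrays was 1.01, against 1.83 for the probe set used. The values of Xaf1 given here are those of the probe set used.

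**Figure D1:**
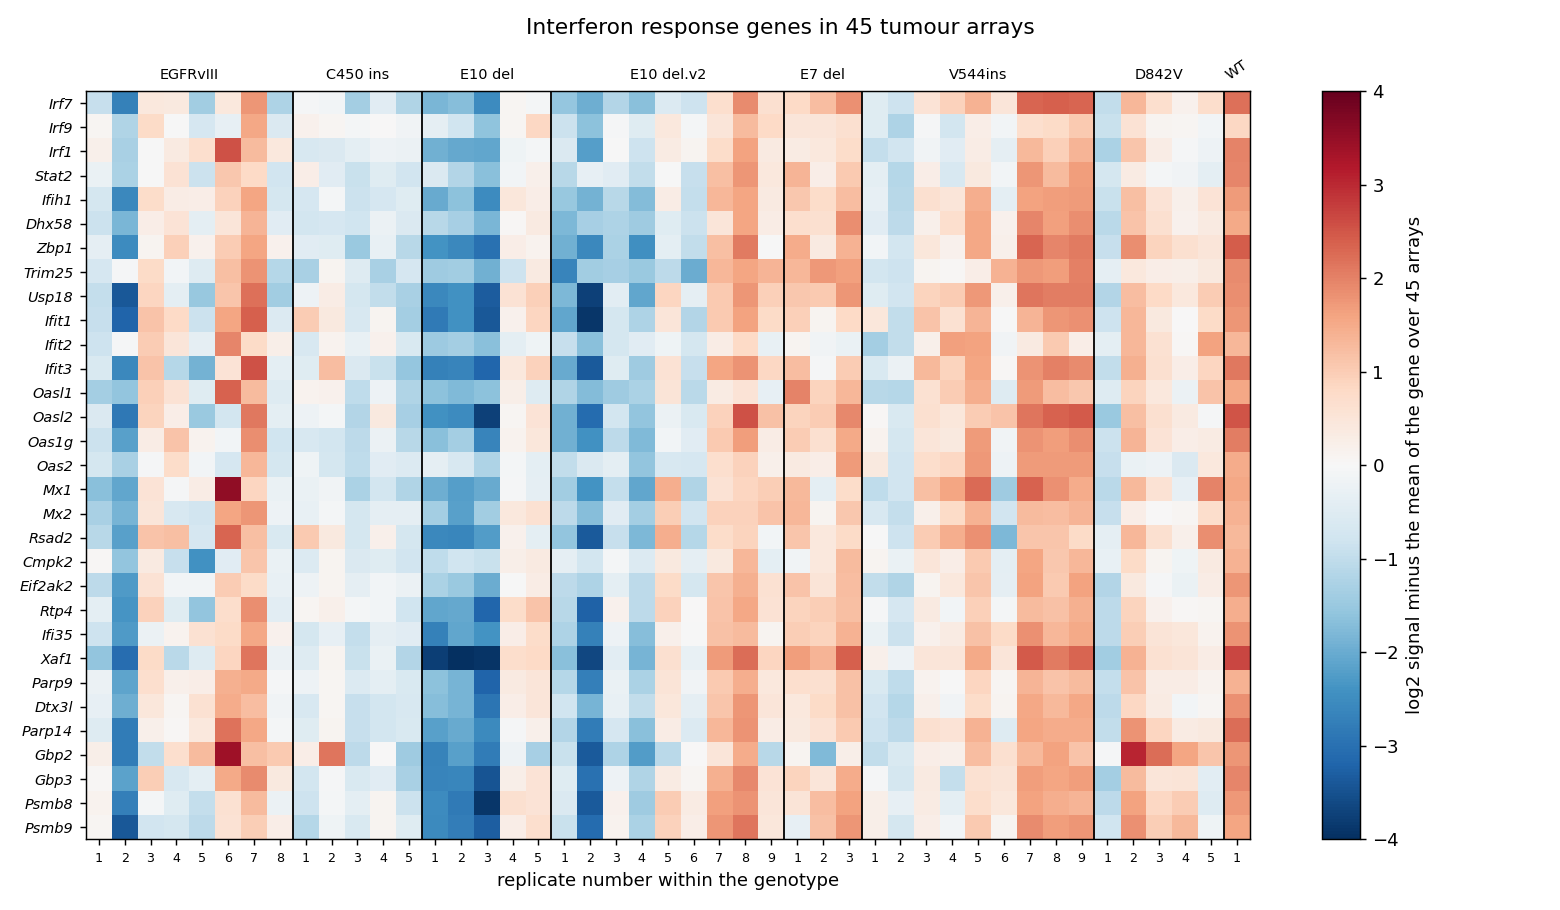
Log2 signal of each of the 31 interferon response genes (rows) in each of the 45 arrays (columns, by genotype and replicate), minus the mean of the gene over all arrays, from blue (lower) to red (higher). E10 del replicates 1 to 3, E10 del.v2 replicate 2 and EGFRvIII replicate 2 are low in most rows, and WT and V544ins replicates 7 and 9 are high in most.

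The members moved together from array to array. E10 del replicate 3 was among the 5 lowest of 45 arrays in 31 of 31 members, EGFRvIII replicate 2 in 29, E10 del.v2 replicate 2 in 27, and E10 del replicates 1 and 2 in 24 and 23. At the other end, the WT array was among the 5 highest in 26 of 31 members, V544ins replicates 7 and 9 in 24 and 23, and E10 del.v2 replicate 8 in 19. E10 del.v2 thus held arrays at both ends. The EGFRvIII array with the highest mean over the members, replicate 7, was among the 5 highest in 12 of 31. The mean over the 31 members in an array ran from 5.36 to 9.26 in E10 del.v2 (mean 7.38 ± 1.25 SD, n = 9) and from 5.58 to 9.23 in EGFRvIII (7.67 ± 1.13 SD, n = 8). It was 8.33 ± 0.92 (SD, n = 9) in V544ins, 8.00 ± 0.74 (SD, n = 5) in D842V and 7.27 ± 0.36 (SD, n = 5) in C450 ins. The ends of the order were E7 del at 8.59 ± 0.35 (SD, n = 3) and E10 del at 6.51 ± 1.33 (SD, n = 5), with the single WT array at 9.49. By gene, E10 del had the lowest group mean in 29 of 31 members and E7 del the highest in 23, among the 7 replicated groups. This order, and the places among the 5 lowest or 5 highest arrays, were not counted over all genes. The member counts thus cannot be weighed against a share of all genes. In the mean over the members the ranges of the 7 replicated groups overlapped widely. The exception was E7 del, whose 3 arrays lay above all 5 C450 ins and all 5 E10 del arrays (8.26 to 8.96 against 6.88 to 7.74 and 5.19 to 8.01).

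Setting the 6 PDGFRA mutants against EGFRvIII addresses how tumours depend on which receptor was delivered. No interferon response gene passed the test in either direction. In limma's moderated test on all genes, with Benjamini-Hochberg adjustment, 0 of 31 members reached an adjusted p under 0.05, where 8.9% of all genes did, and 0 members had an unadjusted p under 0.05, where 27.5% of genes did. The differences, mutants minus EGFRvIII on the log2 scale, were positive in 17 members and negative in 14, with a median of 0.05 against -0.02 over all genes. Their range was -0.70 to 0.57. With the title range as a block the median was 0.62 and 29 of 31 differences were positive, with 0 members called. Within titles 41 to 64 alone E7 del, V544ins and E10 del.v2 were the only mutants, so the comparison itself changed. There the median was 0.75 with 28 positive, again with 0 members called. Without EGFRvIII replicate 2, whose members were low, 5 of 31 differences were positive and the median was -0.19, also with 0 called. The share of all genes called rested on single EGFRvIII arrays, at 1.57% without replicate 5, 2.79% without replicate 6, 4.23% without replicate 4 and 19% without replicate 1, and no member was called in any of these fits.

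Among the transcription factors, Irf1, which responds mainly to interferon gamma, had the lowest difference of all members. Irf1 was 6.80 at the lowest, 8.50 at the median and 10.64 at the highest in the 8 EGFRvIII arrays, and 7.46, 7.53, 7.70, 7.89 and 7.85 in C450 ins, within that range. Its difference was -0.70 ± 0.36 (SE, adjusted p = 0.194, limma). Irf7, the factor that amplifies type I interferon production, was 3.89, 6.34 and 8.37 (lowest, median, highest) in EGFRvIII and 5.77, 7.52 and 8.98 in V544ins. It was 7.38, 7.81 and 8.41 in the E7 del arrays, 5.60, 7.92, 7.27, 6.75 and 7.29 in D842V, and 8.80 in WT. The difference of Irf7 from EGFRvIII was 0.45 ± 0.45 (SE), no larger than its error. Irf9 and Stat2, partners in the factor that binds the response element, had differences of 0.07 ± 0.29 and 0.07 ± 0.32 (SE).

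Of the nucleic acid sensors, Zbp1, which binds left-handed nucleic acid and can trigger necroptosis, varied most. Zbp1 was 4.28, 6.97 and 8.37 (lowest, median, highest) in EGFRvIII, 6.04, 7.24 and 9.12 in V544ins and 4.20, 5.81 and 8.86 in E10 del.v2. It was 4.39, 4.20, 3.81, 7.05 and 6.93 in the E10 del replicates in order, so that 3 arrays of this group lay near the lowest array of EGFRvIII and the other two near its median. The difference of Zbp1 from EGFRvIII was -0.22 ± 0.48 (SE). Ifih1, the sensor MDA5 of long double-stranded RNA, had 0.01 ± 0.43, and its relative Dhx58 had 0.13 ± 0.37. Trim25, a ubiquitin ligase that activates the sensor RIG-I, had -0.16 ± 0.41 (SE).

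Usp18 was 5.13, 7.84 and 10.72 (lowest, median, highest) in EGFRvIII, 7.74, 9.54 and 10.64 in V544ins, and 9.60, 9.57 and 10.27 in the E7 del arrays. The E7 del arrays lay inside the range of EGFRvIII, and the difference of the mutants was 0.50 ± 0.56 (SE). In the IFIT family, whose proteins bind foreign RNA, Ifit3 was 6.89, 8.98 and 12.04 in EGFRvIII and 8.88, 10.79 and 11.50 in V544ins, with a difference over the mutants of 0.28 ± 0.55 (SE). Ifit2 had -0.54 ± 0.31 (SE, adjusted p = 0.246, limma) and Ifit1 -0.11 ± 0.55 (SE). The probe set of Ifit3 may also read its near copy Ifit3b, and that of Oas1g other genes of the Oas1 family.

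Oasl2, a relative of the enzymes that make the activator of RNase L, had arrays from 5.29 to 10.24 in EGFRvIII and from 7.53 to 10.60 in V544ins, and a difference over the mutants of 0.35 ± 0.53 (SE). Oas1g, Oas2 and Oasl1 had differences between -0.13 and 0.16. Among the other antiviral effectors Cmpk2 had the highest difference of all members, 0.57 ± 0.28 (SE, adjusted p = 0.183, limma). Cmpk2 was 6.10, 8.18 and 9.64 (lowest, median, highest) in EGFRvIII, 8.13, 9.02 and 10.10 in V544ins, 7.79, 8.18 and 9.87 in E10 del.v2, and 7.98, 8.63, 7.95, 8.05 and 7.78 in C450 ins. The groups overlapped, and only the lower end of EGFRvIII lay apart. Xaf1 had 0.35 ± 0.60 (SE), and Mx1, Mx2, Rsad2, Eif2ak2, Rtp4 and Ifi35, which act on viral entry, replication or translation or whose roles are less settled, had differences between -0.25 and 0.24.

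Parp9, Dtx3l and Parp14, which add ADP-ribose or ubiquitin in a shared complex or pathway, had differences of -0.27 ± 0.41, -0.28 ± 0.39 and -0.21 ± 0.46 (SE). The guanylate binding protein gene Gbp2, an interferon gamma target that attacks intracellular pathogens, was 5.92, 9.57 and 12.12 (lowest, median, highest) in EGFRvIII and 8.68, 11.78, 10.96, 10.30 and 9.84 in D842V. It was 5.37, 7.63 and 10.22 in E10 del.v2 and 8.82, 6.95 and 8.95 in E7 del. The difference of Gbp2 over the mutants was -0.68 ± 0.52 (SE), and its probe set is of the kind that can cross-hybridise with related sequences. The immunoproteasome genes Psmb8 and Psmb9, whose products shape peptides for MHC class I, had differences of 0.32 ± 0.49 and 0.54 ± 0.50 (SE).

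**Figure D2:**
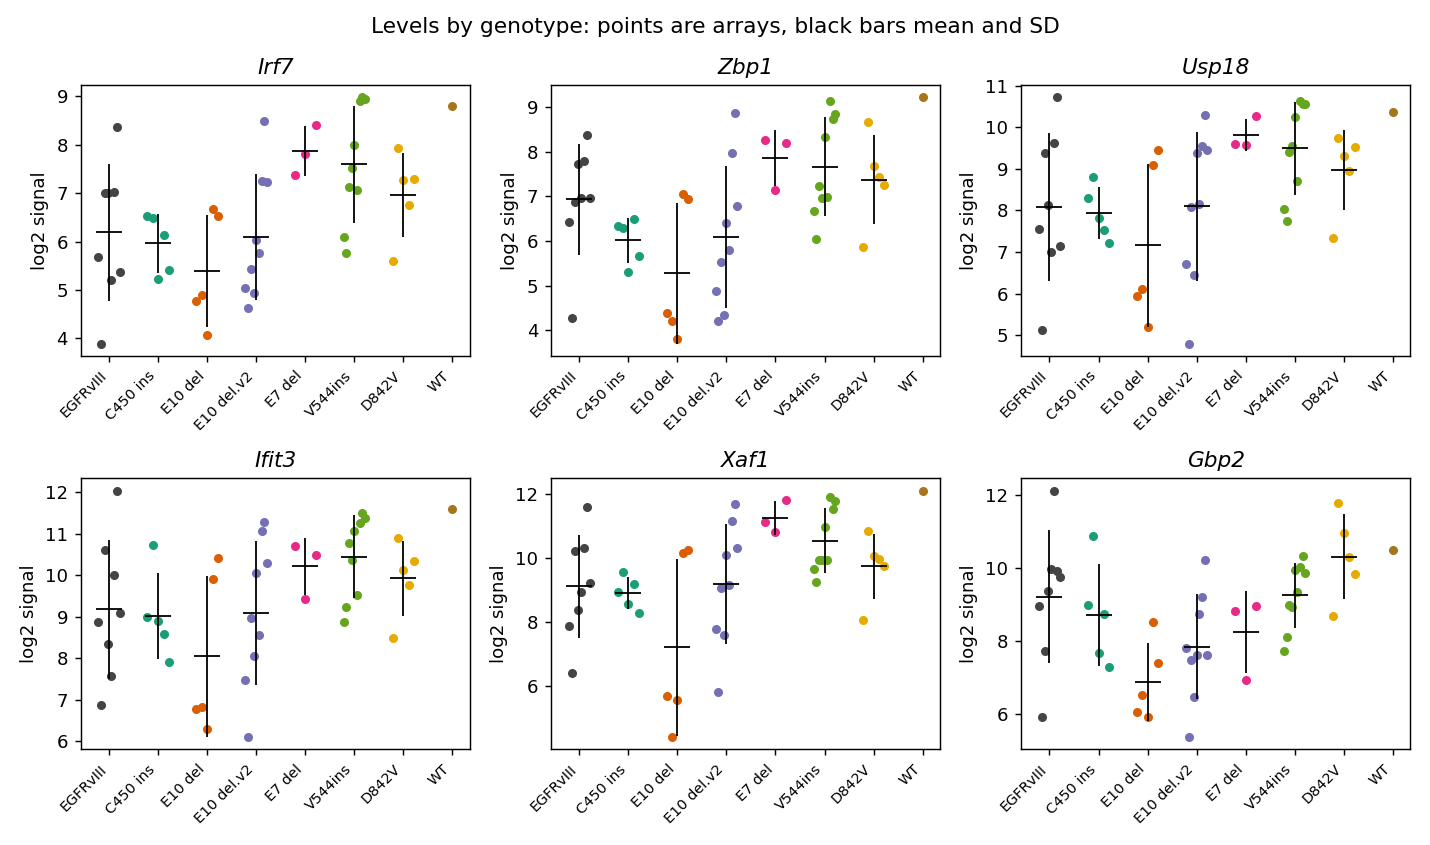
Log2 signal by genotype for Irf7, Zbp1, Usp18, Ifit3, Xaf1 and Gbp2, with a point for each array and black bars for the group mean and SD. Most groups overlap, but E7 del lies wholly above C450 ins and E10 del in Irf7, Zbp1, Usp18 and Xaf1, and D842V wholly above E10 del in Gbp2. In E10 del 3 arrays lie low while the others lie near the other genotypes, for example Xaf1 at 5.69, 4.39 and 5.55 against 10.15 and 10.24.

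The next question was whether the 6 mutants differ among themselves. By limma's moderated F test 0 of 31 members were called, against 0.576% of all genes (68), and the lowest adjusted p among members was 0.0844 (Oas2). At an unadjusted p under 0.05 there were 20 of 31 members, against 18.2% of all genes. Each mutant was also compared with the mean of the other 5, in 6 contrasts that share arrays. None of the 6 called a member, while 0.796% of genes were called for E10 del, 0.584% for D842V, 0.356% for E7 del and 0% for the others.

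E10 del had the lowest levels. All 31 differences of E10 del from the other 5 mutants were negative, with a median of -1.35 against -0.07 over all genes, and 26 of 31 members had an unadjusted p under 0.05 where 27.7% of genes did. Xaf1 had the largest difference, -2.72 ± 0.74 (SE, adjusted p = 0.058, limma). Xaf1 was 5.69, 4.39, 5.55, 10.15 and 10.24 in the E10 del replicates in order, 9.25, 9.95 and 11.91 (lowest, median, highest) in V544ins, and 5.82, 9.16 and 11.69 in E10 del.v2. Psmb8 (-1.95 ± 0.60), Oasl2 (-1.92 ± 0.65), Psmb9 (-1.89 ± 0.62), Rsad2 (-1.81 ± 0.60) and Gbp2 (-1.99 ± 0.64) had the next largest, each with an adjusted p above 0.05 by limma.

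These low values rest on E10 del replicates 1, 2 and 3, whose means over the members were 5.78, 5.70 and 5.19, against 7.87 and 8.01 in replicates 4 and 5. Without these 3 arrays and E10 del.v2 replicate 2, the 4 lowest on component 1, the median difference of E10 del was 0.04, with 17 of 31 positive and 0 called. That fit leaves E10 del with replicates 4 and 5 only. The 3 E10 del arrays taken out ranked 41, 42 and 45 of 45 in the mean over the members, so a smaller difference was bound to follow. Leaving out other single arrays raised the count, to 22 members without E10 del replicate 5 (14% of all genes called), to 21 without replicate 4 (13.7%) and, without E10 del.v2 replicate 2 alone, to 9 (7.5%). With macrophage content as a covariate 18 members were called lower (7.57% of genes). In the same contrast the median difference of 9 neuron markers was 1.69, with 9 of 9 positive. That of 5 oligodendrocyte progenitor markers was -1.58 and that of 4 proliferation markers -1.69, all negative, with 0 markers of the 3 lists called. Macrophage and microglia markers had a median of -0.14, with 7 of 19 positive and 0 called. The part of these other differences in the interferon values was not tested. In bulk tumour RNA fewer cells of a type and less RNA per cell cannot be told apart.

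E7 del and V544ins stood at the other end without a call. In E7 del 30 of 31 differences from the other 5 mutants were positive, with a median of 1.10, and 9 members had an unadjusted p under 0.05 where 17% of genes did. Trim25, at 9.65 to 10.05 in the 3 E7 del arrays and 7.01 to 8.44 in C450 ins, had the smallest p there (1.89 ± 0.63, adjusted p = 0.141, limma). The exception in sign was Gbp2 at -0.36 ± 0.79 (SE). Blocking on title range lowered the median of E7 del to 0.35, and neuron content as a covariate gave 0.59. The upper range alone gave 0.46, but there E7 del was set against V544ins and E10 del.v2 only. E7 del also had the lowest mean of the neuron markers among the groups, 6.65 ± 2.30 (SD, n = 3), and of the oligodendrocyte markers, 7.46 ± 1.69 (SD, n = 3), and their part in its interferon values was not tested. In V544ins 30 of 31 differences were positive with a median of 0.77, and 11 members had an unadjusted p under 0.05 where 4.44% of genes did. With the title block that median was 0.45, and within titles 1 to 30, where E7 del has no array, it was 0.35.

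In the other 3 mutants the size of the differences, and in D842V and C450 ins their direction, depended on the arrays compared. A fit within titles 1 to 30 leaves out E7 del. Within titles 41 to 64 E10 del.v2 is set against E7 del and V544ins only. In D842V 26 of 31 were positive with a median of 0.32, and Gbp2 had 2.13 ± 0.64 (SE, adjusted p = 0.0982, limma). The median of D842V was 0.92 with the title block and 1.02 within titles 1 to 30, all 31 differences positive in both, but -0.04 with 14 positive without the 4 arrays lowest on component 1. In C450 ins 29 of 31 were negative with a median of -0.56, but 14 of 31 were positive with the title block (median -0.05) and 17 within titles 1 to 30 (median 0.04). In E10 del.v2 27 of 31 were negative with a median of -0.38, which was -0.68 with the title block and -1.05 within titles 41 to 64, with 0 positive in both, and -0.14 with neuron and -0.15 with macrophage content as a covariate.

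**Figure D3:**
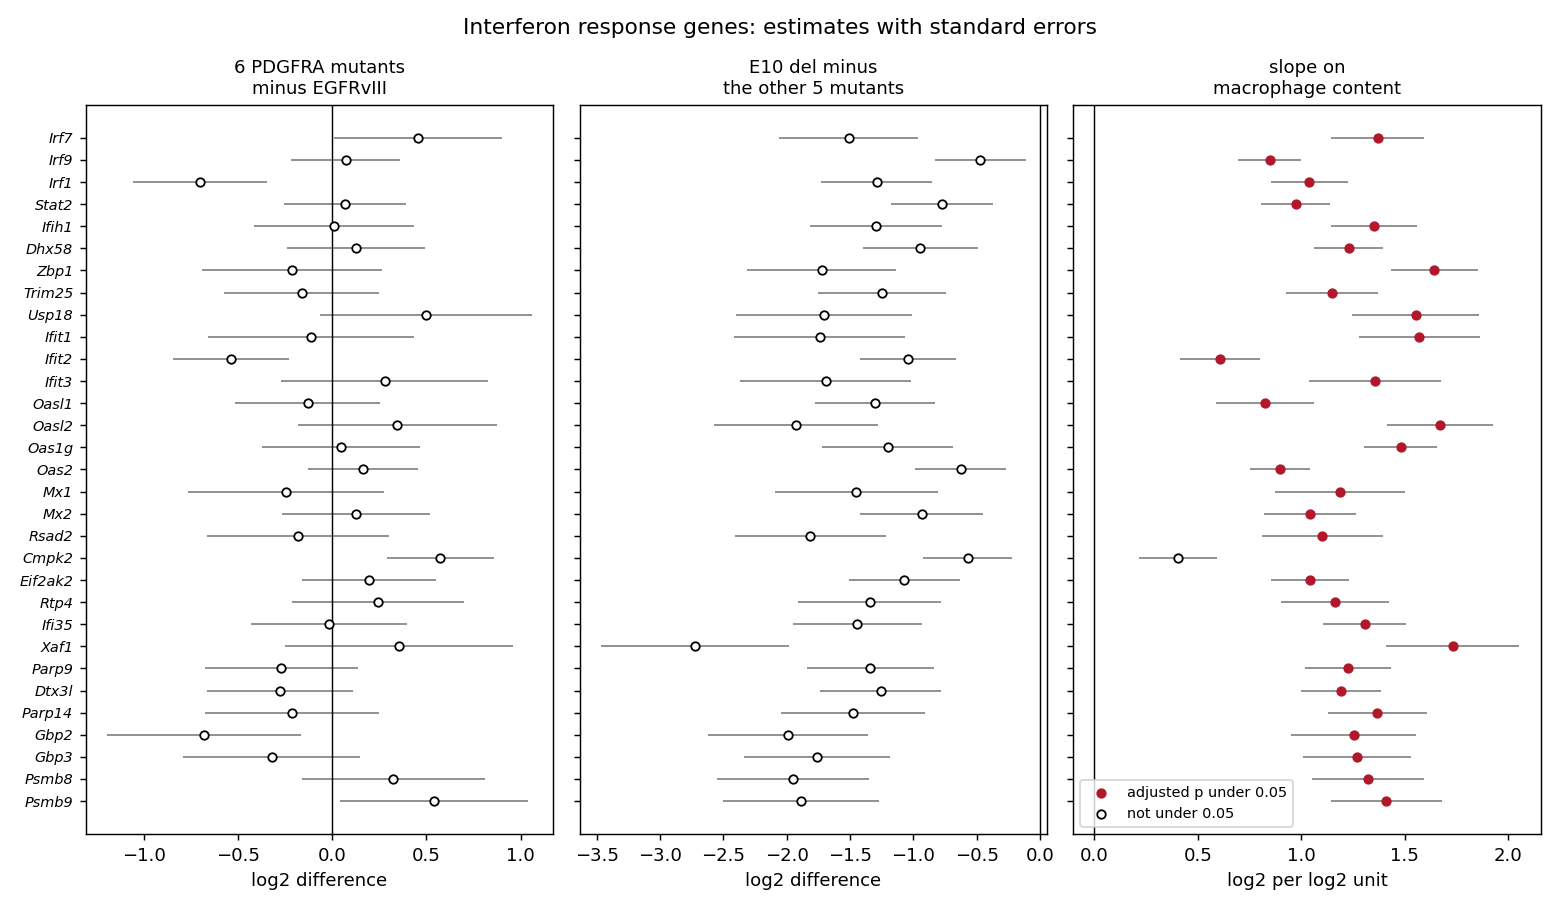
Estimates with standard errors for each of the 31 interferon response genes, as log2 differences of the mutants from EGFRvIII (left) and of E10 del from the other 5 mutants (centre), and as slopes on macrophage content (right, log2 per log2 unit), with filled points at an adjusted p under 0.05. Points lie on both sides of 0 on the left, all below 0 in the centre and all above 0 on the right, where 30 of 31 are filled.

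Because C450 ins, D842V and E10 del share a title range that EGFRvIII and E7 del do not, the ranges were compared inside V544ins and E10 del.v2, which span both. Upper minus lower, all 31 differences were positive, with a median of 1.04 against 0.05 over all genes, but 0 of 31 members and 0% of all genes were called. With macrophage content as a covariate the median was 0.17 with 24 positive, and with neuron content it was 0.30 with 25 positive. At an unadjusted p under 0.05 there were 13 members, where 23.2% of genes passed. Trim25 had the lowest adjusted p (1.86 ± 0.49 SE, adjusted p = 0.0914, limma). Trim25 was at most 8.42 in the 3 lower-range V544ins arrays and at least 8.36 and at most 10.33 in the 6 upper-range arrays. In E10 del.v2 it was 5.68, 6.98 and 6.33 in the lower range and 6.94, 6.84, 7.28, 9.65, 9.91 and 9.67 in the upper, so the ranges overlapped slightly in both genotypes. Only Ifi35 had every upper-range V544ins array above every lower-range one, and no member did so in E10 del.v2. The share of all genes that did so was not counted, so these counts cannot be weighed against it. Without E10 del.v2 replicate 2, 21 of 31 members were called higher, where 24.8% of genes were called. For the genotypes that lie in 1 range only, range and genotype cannot be told apart.

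The levels were then set against macrophage content, the mean log2 signal of Aif1 and Csf1r. Aif1 encodes a calcium-binding protein of microglia and macrophages, and Csf1r the receptor for the growth factors these cells depend on. Aif1 was 7.93, 8.78 and 9.69 (lowest, median, highest) in EGFRvIII, 7.95, 8.67 and 9.59 in V544ins and 6.97, 8.30 and 9.96 in E10 del.v2. Its group means ran from 8.50 to 8.97 in the mutants and the WT array was at 9.54. Csf1r was 7.06, 7.61 and 8.93 in EGFRvIII and 6.76, 7.24 and 8.86 in E10 del.v2, 8.06 ± 0.49 (SD, n = 9) in V544ins, and 8.71 in WT. By group, macrophage content was 8.28 ± 0.62 (SD, n = 8) in EGFRvIII, 8.17 ± 0.70 (SD, n = 5) in E10 del and 8.45 ± 0.38 (SD, n = 3) in E7 del. Its group means thus spanned less than 0.5 over the replicated groups, 7.99 to 8.45, where those of the interferon mean spanned 6.51 to 8.59.

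Between arrays of one genotype, the interferon response genes were higher where macrophage content was higher. With genotype means in the fit, 30 of 31 members had a positive slope that passed the test, where 18.4% of all genes did in this direction and 35.4% in either. The median slope was 1.23 log2 units per log2 unit of macrophage content, against 0.04 over all genes. By class the count was 4 of 4 transcription factors, 4 of 4 sensors and partners, Usp18, 3 of 3 IFIT genes, 4 of 4 OAS genes, 7 of 8 other effectors, 3 of 3 of Parp9 and its partners, 2 of 2 guanylate binding protein genes and both immunoproteasome genes. The member that did not pass was Cmpk2 (0.40 ± 0.19 SE, adjusted p = 0.0914, limma).

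The smallest p belonged to Oas1g, a gene of the enzymes that answer double-stranded RNA, with a slope of 1.48 ± 0.18 (SE, adjusted p = 5.05e-08, limma). Oas1g was 5.16, 7.14 and 9.25 (lowest, median, highest) in E10 del.v2, where macrophage content ran from 7.11 to 9.39, and both its extremes fell on the arrays with the extremes of macrophage content. In D842V it was 6.73, 8.93, 8.13, 7.86 and 7.91 at macrophage contents of 7.47, 8.18, 8.36, 8.33 and 8.37, so the lowest array was lowest in both. Zbp1 followed at 1.64 ± 0.21 (adjusted p = 1.86e-07), and Dhx58 at 1.23 ± 0.17 (adjusted p = 7.22e-07), by the same limma fit. Ifih1 had 1.35 ± 0.21 (adjusted p = 6.82e-06) and Oasl2 1.67 ± 0.26 (adjusted p = 7.14e-06, limma). The largest slope was that of Xaf1, 1.73 ± 0.32, and among the transcription factors Irf7 had 1.37 ± 0.22 (SE).

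**Figure D4:**
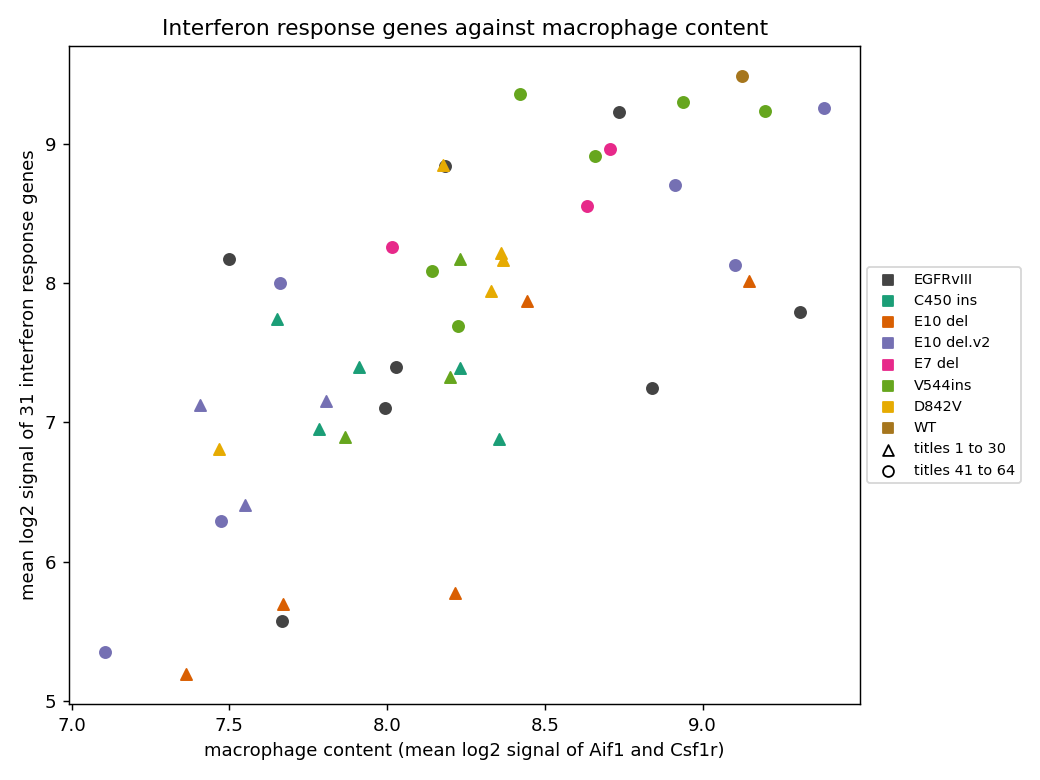
Mean log2 signal of the 31 interferon response genes against macrophage content (mean log2 signal of Aif1 and Csf1r), 1 point per array, coloured by genotype, with triangles for titles 1 to 30 and circles for titles 41 to 64. Points rise from lower left to upper right, with EGFRvIII at 9.31 and 8.84 on the horizontal axis lying low at 7.79 and 7.25, and E10 del replicate 1 low at 5.78 for a macrophage content of 8.21.

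Single arrays departed from this relation. EGFRvIII replicates 4 and 5 had macrophage contents of 9.31 and 8.84 and interferon means of 7.79 and 7.25, while EGFRvIII replicate 3 had 7.50 and 8.17. E10 del replicate 1 had a macrophage content of 8.21 with an interferon mean of 5.78, and V544ins replicate 7 had 8.42 with 9.36. Fitted in each genotype alone, as a description, the slope was positive in 31 of 31 members in D842V (median 1.52), E10 del (1.63), E10 del.v2 (1.28) and V544ins (1.86), and in 28 of 31 in EGFRvIII (0.62). Of all genes, 50.4% (EGFRvIII) to 56.7% (V544ins) had a positive slope in a genotype. The slope in D842V rested on replicate 1, without which 2 of 31 were positive (median -3.92) over macrophage contents of only 8.18 to 8.37. Without EGFRvIII replicate 2 the slope in EGFRvIII was positive in 19 of 31 with a median of 0.04. In E10 del, E10 del.v2 and V544ins all 31 stayed positive whichever single array was left out. In E10 del each such fit still sets low arrays among replicates 1 to 3 against replicate 4 or 5, so it cannot test the slope apart from that contrast. In C450 ins, whose 5 arrays spanned only 7.65 to 8.35, the slope was positive in 7 of 31 with a median of -0.61, and in 4 to 15 with a single array left out. The difference of slopes between genotypes, tested over all genes, called 0 members and 0% of genes, with a lowest adjusted p of 0.403 among members (limma) and 2 members at an unadjusted p under 0.05 where 10.9% of genes passed.

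The count of positive slopes changed with the arrays used. Within titles 41 to 64 alone 15 of 31 members passed, where 3.73% of genes did in either direction, and within titles 1 to 30 alone 28 passed, where 43.2% did. Macrophage content also went with lower neuron markers, whose slopes were negative in 9 of 9 and called in 3 (Snap25, Rbfox3 and Snap91). Of all genes 17% had a called negative slope. With neuron content as a covariate 28 of 31 members still passed (13.9% of genes), and without the 4 arrays lowest on component 1 there were 26 (15%). With Csf1r alone in place of the mean 24 passed (16.1%), and with Aif1 alone 31 (45.4%). The slope relates signals of the same arrays, and whether macrophages or tumour cells held the interferon transcripts was not tested.

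Other genes of the pathway were taken from lists of ligands, receptors, signalling genes and targets. The interferons themselves were near the floor of the arrays: of 13 listed, 7 were measured and 0 passed the filter. Ifnb1 had group means from 3.08 to 3.29 over the replicated groups and 3.45 in WT, and Ifng from 2.62 to 2.93, both below the table median of 4.79. The receptor gene Ifnar1 was 7.35 ± 0.30 (SD, n = 8) in EGFRvIII and 6.89 to 7.08 in the mutant means, and its slope on macrophage content was 0.12 ± 0.08 (SE, adjusted p = 0.257, limma). Ifnar2 had a slope of 0.39 ± 0.08 (adjusted p = 0.00059, limma) and Ifngr1 0.61 ± 0.14 (adjusted p = 0.00133, limma), while Ifngr2 had 0.19 ± 0.10 (SE) and was not called. Of 8 receptor and kinase genes 5 had a called positive slope, where 18.4% of all genes did, and 0 a negative one.

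Over all 80 pathway genes that passed the filter outside the members, 67 (83.8%) had a called positive slope, against 18.4% of all genes, and 0 a negative one. Downstream, 7 of 10 signalling and feedback genes did. They were led by the phosphatase gene Ptpn6 (1.26 ± 0.12) and the factors Irf5 (0.70 ± 0.09) and Irf8 (1.02 ± 0.13). Of 10 upstream sensors and adaptors 9 did, among them Tlr7 (0.86 ± 0.12), which detects single-stranded RNA in endosomes, and Ddx58, the gene of RIG-I (1.10 ± 0.18). Of 31 further interferon targets 27 did, with Trim30a at 1.59 ± 0.18, Uba7, which activates ISG15, at 1.34 ± 0.15, and Parp10 at 1.39 ± 0.16. The RNA editing gene Adar was not called, at -0.15 ± 0.13 (SE). Of 11 interferon gamma targets 9 did, among them Nlrc5, which drives MHC class I transcription, at 1.60 ± 0.29 (SE). All 10 genes of MHC class I and its loading did, with Tapbp at 0.94 ± 0.10 and Psme2 at 0.72 ± 0.09. Of the macrophage and microglia markers 17 of 19 had a called positive slope, Aif1 and Csf1r included by construction. Which cells held the transcripts of the pathway genes was not tested.

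Against EGFRvIII, 6 of the 80 pathway genes (7.5%) were called lower in the PDGFRA mutants and 0 higher, a share near the 5.35% of all genes called lower. Sting1, the adaptor that carries the signal of cytosolic DNA, was 5.82, 6.63 and 8.66 (lowest, median, highest) in EGFRvIII, with mutant means from 5.51 to 6.06 and 7.53 in WT, and fell by 1.27 on the log2 scale (SE 0.25, adjusted p = 0.00263, limma). Nmi, a partner of STAT proteins, was 8.74 ± 0.60 (SD, n = 8) in EGFRvIII and 7.07 ± 0.52 (SD, n = 5) in D842V, and fell by 1.05 (SE 0.25, adjusted p = 0.00892, limma). The others were Ifi204, a DNA sensor (-1.75 ± 0.47), Ikbke, a kinase of the type I induction pathway (-0.84 ± 0.23), the shared receptor gene Il10rb (-0.75 ± 0.18) and the phosphatase gene Ptpn2 (-0.55 ± 0.17). They came from 1 of 8 receptors and kinases, 1 of 10 signalling genes, 2 of 10 sensors and adaptors and 2 of 31 further targets, with 0 of 11 interferon gamma targets and 0 of 10 genes of MHC class I and its loading. None of the 6 was called with the title range as a block, where Sting1 had -1.02 ± 0.32 (adjusted p = 0.0715, limma). Nor was any called within titles 41 to 64 alone, with E7 del, V544ins and E10 del.v2 as the only mutants. Sting1 had -1.06 ± 0.35 there (adjusted p = 0.136, limma). Without EGFRvIII replicates 4, 5 and 6 none was called either, with Sting1 at -0.50 ± 0.22 (adjusted p = 0.447, limma), Ptpn2 at -0.05 ± 0.16 and Nmi at -1.22 ± 0.31 (SE), and 0.457% of all genes were called.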

How the data were processed

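Total RNA was extracted with Trizol and 100 ng labelled with biotin for Affymetrix 3' IVT arrays, per the labels' protocols. The authors deposited log2 signals of 45141 probe sets made with RMA, per the submitters' processing notes, whose version and settings are not given in the sources used here. Values ran from 1.46 to 13.82, with array medians of 4.66 to 4.85, and were used as deposited. For arrays, their number limits the precision.

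By the platform annotation 28898 probe sets had 1 gene symbol, 551 several and 15692 none. A gene was represented by its probe set of highest mean, and genes above the table median in at least 3 arrays were kept. R 4.3.3 with limma 3.58.1 (lmFit, eBayes) gave differences and slopes over the 8 genotype groups of the labels, and the procedure was tested on simulated data. P-values were adjusted by Benjamini-Hochberg over all 11809 genes, and called means an adjusted p under 0.05. The mutants were represented by the unweighted mean of their 6 group means. The members, the lists and the tests were chosen with earlier results of these data known. Members named with values were those with the largest residual SD and the smallest p against EGFRvIII in each of 9 role classes, and the 5 with the smallest p in a contrast with calls. Fits without the 4 arrays lowest on component 1 or without EGFRvIII replicates 4, 5 and 6, with Actb as a covariate, with neuron content and title range together, and the slopes by genotype, also without single arrays, were added after seeing the data, as were the alternatives for the 6 pathway genes. Trim25, Psmb8, Rsad2 and Oas2 were named after their values were seen.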

Additional observations from a re-analysis of the deposited data

Results flagged for a closer look

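In 120 sets of values of a named gene or of macrophage content in a genotype of 5 to 9 arrays, 3 had an end array that stood apart from the rest of its group by Dixon's criterion. Chance alone flags about 1 in 20 such groups. Dtx3l, a ubiquitin ligase gene that acts with Parp9, was 7.69 in C450 ins replicate 2, above 6.95 in the next array and 6.69 in the lowest. Psmb9 was 5.34 in EGFRvIII replicate 2, below 7.67 in the next array and 9.70 in the highest, and this array was among the 5 lowest of 45 in 29 of 31 members. Macrophage content was 7.47 in D842V replicate 1, below 8.18 in the next array and 8.37 in the highest.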

How the results depend on the processing

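No paired analysis was possible because the labels give no replicate numbers, and the numbers here follow accession order. Leaving out 1 array at a time, members called ran from 0 to 22 for E10 del, 0 to 21 for the title ranges, 0 to 1 for the F test among mutants and 30 to 31 for the slope, and were 0 for the mutants against EGFRvIII and for each of the other 5 mutants. Over all genes, those called in these fits ran from 0 to 1653 for E10 del and 0 to 2933 for the title ranges. They ran from 4 to 141 for the F test, 3177 to 4579 for the slope and 185 to 2239 against EGFRvIII. In D842V they ran from 10 to 133, in E7 del from 4 to 85 and in C450 ins from 0 to 1. In E10 del.v2 and V544ins they were 0. The F test called 1 member without V544ins replicate 2 (0.974% of all genes) and 1 without E10 del replicate 4 (1.19%).

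With array weights, from 0.17 to 9.94, the F test called 31 members (91.9% of all genes), the title ranges 29 (30.3%), C450 ins 10 (17.1%), D842V 9 (39.6%), E10 del 31 (71.2%), E10 del.v2 9 (19.1%), E7 del 26 (56.1%) and V544ins 31 (39%). The weights of 1 such fit did not converge to the set tolerance. D842V called 2 members with the neuron covariate (3.45% of all genes), 1 with the macrophage covariate (0.999%) and 3 within titles 1 to 30 (3.31%). With the macrophage covariate the F test called 2 (1.35%) and E10 del 18 (7.57%). The slope called 15 within titles 41 to 64 (3.73%). The title ranges called 21 without the 4 arrays lowest on component 1 (24.8%) and 7 with the Actb covariate (24.6%). Without EGFRvIII replicates 4, 5 and 6 the F test and E10 del called 1 each (2.61% and 2.65%). The cause of these changes was not tested.

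Signs turned only in differences that were not called. Against EGFRvIII, array weights gave Ifit3 -0.20 and Xaf1 -0.077, and the neuron covariate gave Parp14 0.0079. The title block gave Zbp1 0.56, Ifit2 0.083, Parp14 0.42 and Dtx3l 0.35, and titles 41 to 64 gave Zbp1 0.56, Parp14 0.39 and Dtx3l 0.42. Without the 4 arrays these were Zbp1 0.11, Parp14 0.071 and Dtx3l 0.013. Without EGFRvIII replicates 4 to 6 they were Zbp1 0.13, Ifit3 -0.042, Parp14 0.24, Dtx3l 0.050 and Gbp2 0.084. For E10 del, leaving out the 4 arrays gave Usp18 0.33, Ifit3 0.34, Xaf1 0.18 and Psmb9 0.038. For E7 del, array weights gave Gbp2 0.033. For the title ranges, the neuron covariate gave Gbp2 -0.28 and Psmb9 -0.094, and the macrophage covariate Xaf1 -0.045, Gbp2 -0.25 and Psmb9 -0.25. Leaving out single arrays, the difference from EGFRvIII ran from -0.049 to 0.69 for Ifit3, -0.011 to 0.70 for Oasl2, -0.035 to 0.71 for Xaf1 and -0.63 to 0.081 for Parp14, and that of Gbp2 in E7 del from -0.72 to 0.29.

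Genes called numbered 54 to 2136 against EGFRvIII over 14 alternatives and 441 to 5366 for the slope over 18. The other filters, the mean of all probe sets, centred or quantile-normalised arrays and a trended prior changed no count of members by over 1.5 times.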
